A study of Mus musculus with 16 samples.

Results

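The pyruvate dehydrogenase complex and the enzymes that switch it on and off were followed at the transcript level in gastrocnemius muscle. The members were listed by name, as the 5 genes of the complex (Pdha1, Pdhb, Dlat, Dld and Pdhx), the 4 pyruvate dehydrogenase kinase genes (Pdk1, Pdk2, Pdk3 and Pdk4) and the phosphatase gene Pdp1. These are 10 of the 24454 genes counted, and all 10 were among the 15487 genes that passed the filter on low counts in the 16 libraries.

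The complex sits in the mitochondrial matrix and turns pyruvate into acetyl-CoA, the step that commits carbon from glucose to oxidation. Its E1 component, encoded by Pdha1 and Pdhb, decarboxylates pyruvate. E2, encoded by Dlat, passes the acetyl group to coenzyme A, E3, encoded by Dld, reoxidizes the lipoyl arm, and the protein of Pdhx anchors E3 to the E2 core. The kinases phosphorylate the E1 alpha subunit and inactivate the complex, and the phosphatases reverse this. In skeletal muscle, PDK4 is known as the kinase that rises on fasting and spares glucose, while PDK2 is broadly expressed.

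The libraries came from 16 mice aged 3 months, with a separate library for each mouse. HSALR mice, a model of myotonic dystrophy type 1, were homozygous mice of a single line, LR20b, whose HSA transgene (human skeletal actin with long CTG repeats) is expressed in skeletal muscle only. Control mice were of the background strain FVB/N, without the transgene. In the labels, treatment is either CTRL, called vehicle here, or AICAR, a compound that cells convert into an activator of AMP-activated protein kinase (AMPK), given at 500 mg/kg for 7 days. There were 3 control mice with vehicle (S445, S446, S450), 3 control mice with AICAR (S447, S448, S449), 5 HSALR mice with vehicle (S451, S452, S453, S458, S459) and 5 HSALR mice with AICAR (S454, S455, S460, S462, S463). Values below are listed in this order of mice.

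The libraries held 64890014 to 81987726 counted reads, and a level is given as normalized CPM, the read count of a gene brought to a common library size after TMM scaling. The tissue label was borne out by the muscle fibre markers, which summed to 109392 to 152112 normalized CPM in the 4 groups. Epidermal markers stood apart in some libraries: Krt14, a keratin of skin, exceeded 1 CPM in 6 of 16 libraries (1 of 3 control vehicle, 1 of 3 control AICAR, 4 of 5 HSALR vehicle and 0 of 5 HSALR AICAR mice). The 8 epidermal markers together reached up to 187 normalized CPM in HSALR vehicle mice and 0.242 to 0.371 in HSALR AICAR mice. Each call of a member in the fit of all 16 libraries is therefore also given with the 6 libraries left out together. So are counts over lists of other pathway genes, except where AICAR effects are compared between genotypes. Leaving out the 6 libraries kept S451 as the only HSALR vehicle mouse. The fit then assumed that it varied like the mice of the other groups.

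To compare the members with each other, levels were divided by the length of counted exons and are given as normalized CPM per kb. On this scale, Pdha1 was the most abundant member in every group, with a mean between 344 in HSALR vehicle mice and 522 in HSALR AICAR mice. Pdk2 was the leading kinase at 216 ± 17.5 (SD, n = 5) in HSALR vehicle mice, above Pdhb at 175 ± 6.43 (SD, n = 5) and Dld at 149.8 ± 13.0 (SD, n = 5). Pdk4 followed at 104 ± 66.1 (SD, n = 5), a spread that overlapped those of Pdhb and Dld above it. It also overlapped Dlat at 58.3 ± 4.17 and Pdhx at 46.5 ± 2.54 (SD, n = 5 each) below it. The lowest were Pdk1 at 26.4 ± 2.76, Pdp1 at 22.0 ± 5.54 and Pdk3 at 1.55 ± 0.152 per kb (SD, n = 5 each), where Pdk1 and Pdp1 were not separated by more than their spread. Pdha2, the testis form of E1 alpha, had at most 1 read in any library, so E1 alpha transcripts came from Pdha1.

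Among the kinase transcripts per length, Pdk2 made up 58.1% ± 3.78 (SD, n = 3) and Pdk4 33.4% ± 5.17 in control vehicle mice. After AICAR the shares in control mice were 73.1% ± 3.72 for Pdk2 and 17.8% ± 3.92 for Pdk4 (SD, n = 3). In HSALR mice the Pdk2 share was 63.9% ± 12.2 with vehicle and 73.9% ± 6.49 with AICAR, and the Pdk4 share was 27.9% ± 13.1 with vehicle and 18.6% ± 6.84 with AICAR (SD, n = 5 each). Pdk1 held 7.10% to 8.81% and Pdk3 0.210% to 0.462% on average in the 4 groups. The 4 kinases together amounted to 46.6% ± 7.97 of the summed complex transcripts per length in control vehicle mice and 29.3% ± 0.749 after AICAR (SD, n = 3). The corresponding values in HSALR mice were 44.8% ± 6.94 and 30.1% ± 2.03 (SD, n = 5). In every AICAR mouse of either genotype this ratio was between 27.4% and 32.4%, below the 36.8% to 55.8% of all vehicle mice. These shares are descriptions of transcripts, and no test was made on them.

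**Figure D1:**
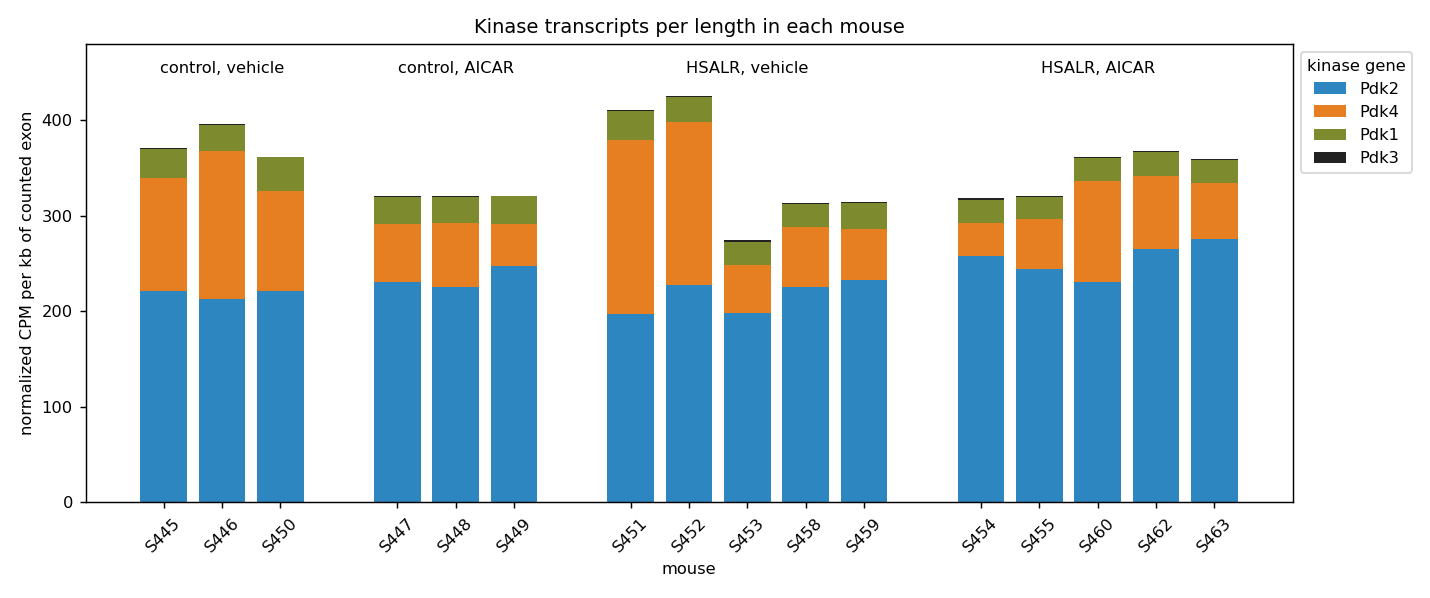
Stacked bars give the level of the 4 kinase genes in each mouse, in normalized CPM per kb of counted exon, with mice grouped by genotype and treatment. The Pdk4 segment varied most between mice, from 34.2 in HSALR AICAR mouse S454 to 182 in HSALR vehicle mouse S451, while the Pdk2 segment stayed between 197 and 276.

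AICAR raised all 5 genes of the complex in HSALR muscle. Pdhb, the E1 beta subunit, rose most, then Pdha1, and Dlat, Dld and Pdhx rose by smaller amounts. Of the 10 members, 6 rose at an adjusted p under 0.05 (edgeR quasi-likelihood test, Benjamini-Hochberg adjustment over all genes tested). In the same comparison 26.6% of all genes were called, 13.7% as higher and 13.0% as lower. These were 2114 higher and 2007 lower genes, and with scaling by library size alone 1327 and 2962. The sixth member was Pdk2, and the other 3 kinases and Pdp1 did not pass.

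Pdhb (chromosome 14, 8165991 to 8173303, minus strand, GRCm38) stood at 263, 267, 245, 259 and 268 normalized CPM in HSALR vehicle mice and at 472, 459.6, 429, 479 and 476 after AICAR. The lowest treated mouse was far above the highest vehicle mouse, and the groups did not overlap. AICAR thus raised Pdhb by 0.83 on the log2 scale (SE 0.06, adjusted p = 1.9e-07, edgeR), a 1.78-fold difference with a 95% interval of 1.64 to 1.93.

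Pdha1 (chromosome X, 160122219 to 160138430, minus strand), the E1 alpha subunit that carries the phosphorylation sites, stood at 1038, 1021, 951, 884 and 1015 normalized CPM with vehicle and 1523, 1436, 1483, 1536 and 1479 with AICAR. All 5 treated mice were above all 5 vehicle mice. This was a rise of 0.60 on the log2 scale (SE 0.07, adjusted p = 1.9e-05, edgeR). Pdha1 shares its location with Map3k15, and reads of overlapping genes may not be fully separated. The 2 E1 genes, whose proteins form a complex in equal numbers, were not in a constant transcript ratio. Per length there were 1.96 ± 0.109 Pdha1 per Pdhb transcript in HSALR vehicle mice and 1.68 ± 0.0719 after AICAR (SD, n = 5 each). Control mice had 2.23 ± 0.107 with vehicle and 1.76 ± 0.0228 with AICAR (SD, n = 3 each).

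Dlat (chromosome 9, 50634633 to 50659780, minus strand), encoding E2, stood at 254, 249, 222, 215 and 236 normalized CPM with vehicle and at 279, 275, 294, 320.3 and 297 with AICAR in HSALR mice (log2 fold change 0.32, SE 0.06, adjusted p = 0.0023, edgeR). Dld (chromosome 12, 31331562 to 31351471, minus strand), the E3 that 2-oxoglutarate and branched-chain ketoacid dehydrogenases also use, stood at 349, 374, 338, 293 and 352 with vehicle and at 411, 431, 418, 431 and 427 with AICAR (log2 fold change 0.31, SE 0.06, adjusted p = 0.0024, edgeR). Pdhx (chromosome 2, 103021055 to 103073513, minus strand) stood at 115, 121, 110.1, 114 and 126 with vehicle and at 144, 139.7, 136, 143 and 143 with AICAR (log2 fold change 0.27, SE 0.05, adjusted p = 0.0018, edgeR). The vehicle and AICAR groups of HSALR mice did not overlap for any of the 5 complex genes. Among all genes, 10.2% were higher and 7.48% lower in AICAR without overlap in this comparison. The median log2 fold change of the 5 genes was 0.32, beside -0.02 over all genes tested.

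All 8 epidermal markers were lower in HSALR AICAR than in HSALR vehicle mice, and adipocyte markers (223 to 429 with vehicle and 315 to 501 normalized CPM with AICAR in sum) had 0 of 8 genes called by edgeR, 1 by DESeq2 and 2 at an unadjusted p under 0.05. Of the 4 endothelial markers, 1 was higher, with sums of 162 to 209.7 with vehicle and 194 to 212 with AICAR. With the 6 Krt14 libraries left out, the log2 fold change was 0.81 for Pdhb (adjusted p = 0.0046) and 0.52 for Pdha1 (adjusted p = 0.043). Dlat at 0.20, Dld at 0.28, Pdhx at 0.29 and Pdk2 at 0.37 no longer passed, with adjusted p-values of 0.33, 0.13, 0.11 and 0.077 in this order. Leaving out any 1 mouse kept the number of members called at 6.

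In control mice, AICAR raised 3 of the 10 members, namely Pdhb, Pdha1 and Dlat, and the others did not pass. Of all genes 13.2% were called in this comparison, 8.40% as higher and 4.77% as lower (1301 and 738 genes, and 916 and 890 with scaling by library size alone). Pdhb was at 262, 225 and 275 normalized CPM with vehicle and at 405, 433 and 427 with AICAR (log2 fold change 0.73, SE 0.07, adjusted p = 3.0e-05, edgeR). Pdha1 was at 1186, 926 and 1161 with vehicle and at 1372, 1442 and 1459 with AICAR (log2 fold change 0.38, SE 0.09, adjusted p = 0.0084, edgeR). Both E1 genes were higher in each AICAR mouse than in each vehicle mouse.

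Dlat was at 272, 228 and 276 normalized CPM with vehicle and at 309, 321 and 321 with AICAR in control mice (log2 fold change 0.29, SE 0.08, adjusted p = 0.032, edgeR). Dld was at 379.7, 316 and 382 with vehicle and at 417, 425 and 419.6 with AICAR, and Pdhx at 117, 97.7 and 116 with vehicle and at 126, 125 and 123 with AICAR. Neither of the latter passed, at log2 fold changes of 0.23 (adjusted p = 0.082) and 0.18 (adjusted p = 0.10, edgeR). All 5 complex genes were without overlap higher in AICAR mice, where 18.1% of all genes were. Vehicle mouse S446 was the lowest of its group for each of the 5 genes. The Dlat call was lost in 4 of 6 fits that left out 1 mouse (without S446, S447, S448 or S449), and the adjusted p over all 6 fits ran from 0.035 to 0.13. Without S446 Dld was at 0.14 (adjusted p = 0.29) and Pdhx at 0.10 (adjusted p = 0.36), the lowest values of either over these fits. When only the control groups were fitted, the adjusted p was 0.091 for Pdha1 and 0.10 for Dlat, and Pdhb alone passed of the complex genes. With scaling by library size alone Dlat was at 0.24 with an adjusted p of 0.10. Without the 6 Krt14 libraries, Pdhb was at 0.76 (adjusted p = 0.0051), Pdha1 at 0.41 (adjusted p = 0.068) and Dlat at 0.32 (adjusted p = 0.11, edgeR).

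The AICAR effects of the genotypes were then compared with each other in an interaction term. Of the 10 members, 0 were called by edgeR and also 0 by DESeq2, 0 had an unadjusted p under 0.05, and 0.691% of all genes were called by edgeR. The estimate nearest to the threshold was that of Pdha1, whose AICAR effect was 0.22 larger on the log2 scale in HSALR mice (95% interval -0.01 to 0.45, adjusted p = 0.36). For Pdhb the difference was 0.10 (95% interval -0.09 to 0.29). For Pdk4 the interval, -0.82 to 1.78, left room for large differences in either direction.

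**Figure D2:**
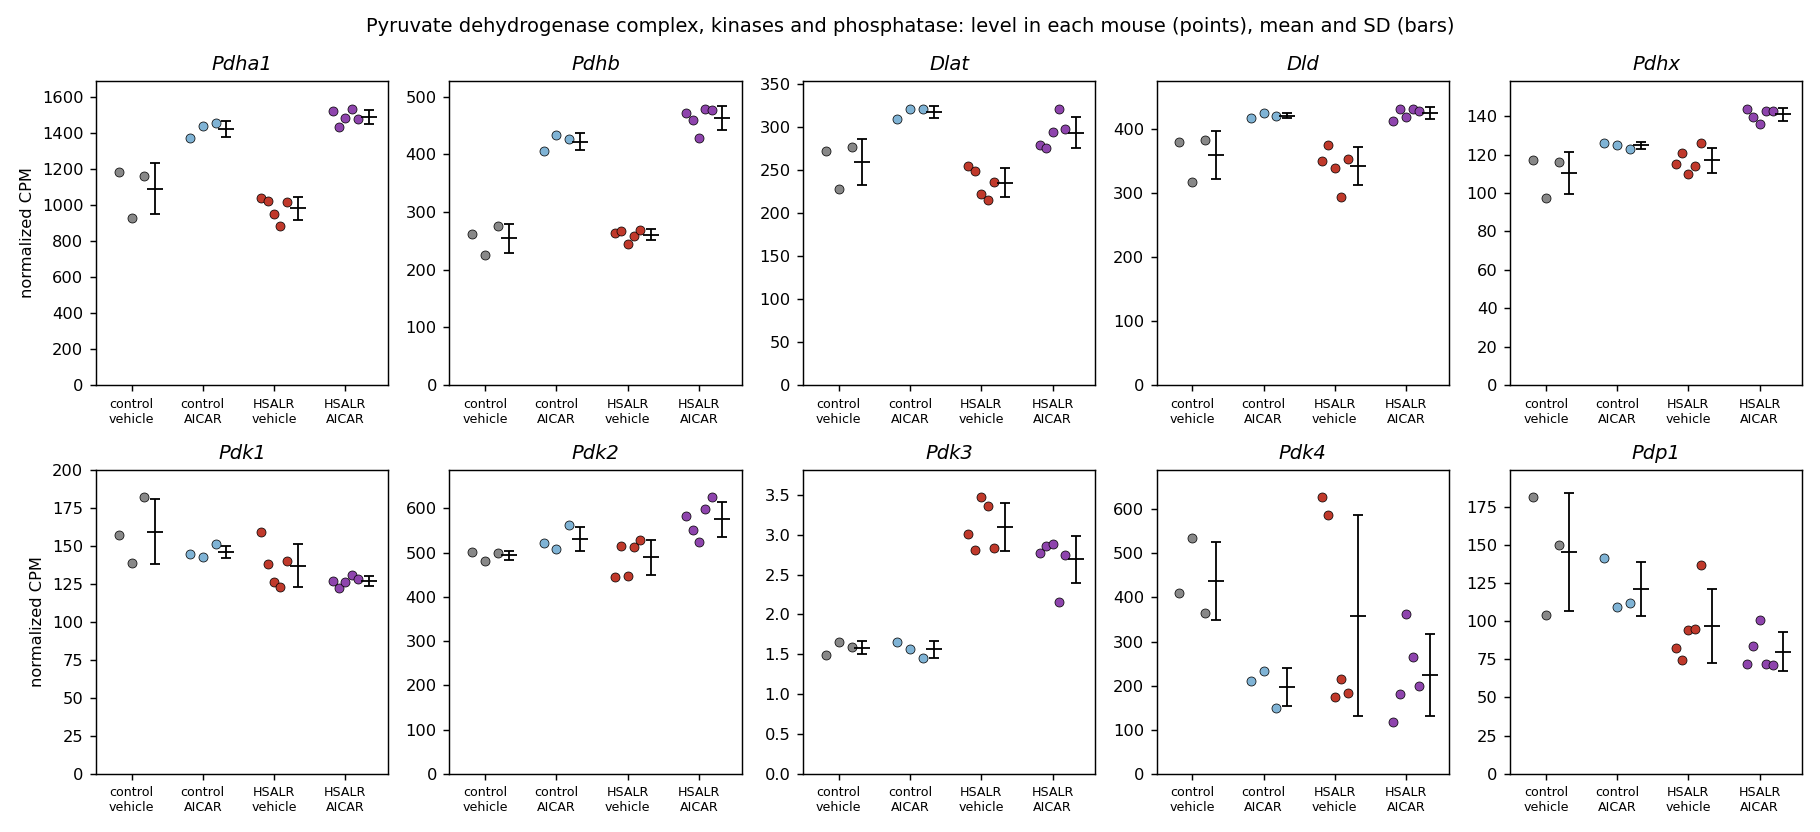
Each panel gives a member's normalized CPM in every mouse (points) with the group mean and SD (bars beside them), with 3 control and 5 HSALR mice per treatment. In the upper row, all 5 complex genes were higher in each AICAR mouse than in each vehicle mouse of the same genotype, and in the lower row Pdk3 separated the genotypes while Pdk4 varied widely within groups.

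The promoters of the E1 genes and of Pdk4 are shown because the first are the genes that rose most with AICAR and the last is the member that varied most between mice. The windows are RefSeq sequences of GRCm38.p6, from 250 bases before to 50 bases after an annotated start, written 5′ to 3′ on the gene's strand. Capitals mark CCAAT or its reverse complement ATTGG. They are chr14:8172943-8173242 (minus strand) for Pdhb, chrX:160138381-160138680 (minus strand) for Pdha1 and chr6:5496229-5496528 (minus strand) for Pdk4.
Pdhb: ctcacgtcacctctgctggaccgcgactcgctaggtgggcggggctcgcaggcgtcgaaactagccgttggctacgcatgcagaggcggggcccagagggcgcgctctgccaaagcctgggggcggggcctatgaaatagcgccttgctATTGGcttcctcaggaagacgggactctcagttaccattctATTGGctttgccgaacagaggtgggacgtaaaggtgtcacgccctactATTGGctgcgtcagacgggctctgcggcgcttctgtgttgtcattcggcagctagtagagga
Pdha1: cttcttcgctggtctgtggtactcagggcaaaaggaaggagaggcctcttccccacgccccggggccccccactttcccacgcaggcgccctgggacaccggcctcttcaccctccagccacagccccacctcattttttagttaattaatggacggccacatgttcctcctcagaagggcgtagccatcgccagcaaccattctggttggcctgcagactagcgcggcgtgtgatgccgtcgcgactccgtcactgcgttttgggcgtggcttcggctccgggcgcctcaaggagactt
Pdk4: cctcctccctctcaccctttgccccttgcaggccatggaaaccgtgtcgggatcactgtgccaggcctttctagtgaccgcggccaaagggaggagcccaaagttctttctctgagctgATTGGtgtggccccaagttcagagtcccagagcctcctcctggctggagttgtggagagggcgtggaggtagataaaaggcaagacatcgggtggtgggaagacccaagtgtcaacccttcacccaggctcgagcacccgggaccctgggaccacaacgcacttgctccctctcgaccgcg

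The Pdhb window held ATTGG at 3 places, which 3.37% of all 32851 windows did at least as often. The annotated Pdhb gene reached beyond this window, to position 8173303, so the window surrounds a start inside the gene model. The Pdk4 window held ATTGG at 1 place, as 37.4% of all windows did at least once, and the Pdha1 window held neither form. Letters were searched on both strands, and none of the motifs contains another. GGGCGG or its reverse complement CCGCCC was found at 2 places in the Pdhb window, where 19.5% of all windows held 2 or more, and in neither of the other windows shown. AGGTCA (the core of many nuclear receptor sites) and TAAACA (part of FOXO motifs) occurred in 16.3% and 13.4% of all windows, and in 0 of the 11 windows of the 9 members that had an entry. Such matches describe letters in these windows only. Pdp1 had no window in the table.

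Among the kinases, Pdk4 had the lowest fold change with AICAR and also the widest spread. Pdk4 (chromosome 6, 5483351 to 5496278, minus strand) was at 411, 535 and 364 normalized CPM in control vehicle mice and at 209.9, 233 and 149 in control AICAR mice. These groups did not overlap, in a comparison where 15.0% of all genes were lower without overlap. The log2 fold change of -1.15 (SE 0.49, 95% interval -2.18 to -0.11) did not pass the threshold over all genes, with an adjusted p of 0.13 by edgeR. When only the 6 control mice were fitted, it was -1.16 with an adjusted p of 0.023, and without the 6 Krt14 libraries it was -1.41 with an adjusted p of 0.091.

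In HSALR vehicle mice Pdk4 was at 627, 587, 175, 216 and 184 normalized CPM. Mice S451 and S452 were above every control mouse, and the other 3 were below every vehicle control mouse. After AICAR the HSALR mice were at 118, 180.1, 363, 264 and 199.8, inside the range of the vehicle group but for S454, which was lower. The log2 fold change for AICAR was -0.67 (95% interval -1.46 to 0.13, adjusted p = 0.21, edgeR) and that for HSALR against control after vehicle was -0.29 (95% interval -1.20 to 0.62, adjusted p = 0.67). Both intervals include no change as well as large decreases. Fits that left out 1 mouse put the AICAR value between -0.91 (without S460) and -0.37 (without S451), with -0.42 without S452. The genotype value ran from -0.60 (without S451) to -0.11 (without S453), and leaving out S446, S452, S458 or S459 also moved it by over 1.5 times. The adjusted p was at least 0.094 in all of these fits. Without the 6 Krt14 libraries, and so with S451 as the only HSALR vehicle mouse, the AICAR value was -1.48 (adjusted p = 0.065) and the genotype value turned to 0.40 (adjusted p = 0.72). With the epidermal marker score in the fit the AICAR value was -0.97 (adjusted p = 0.17). Krt14 was at 0.0835 and 6.63 CPM in S451 and S452, where Pdk4 was high, and at 32.2, 2.98 and 9.50 CPM in S453, S458 and S459. Its part in the Pdk4 values was not tested.

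Pdk2 (chromosome 11, 95026258 to 95041371, minus strand), the leading kinase per length, overlaps Gm11513 and was at 446.2, 515, 447.4, 512 and 528 normalized CPM in HSALR vehicle mice and at 583, 552, 523, 599 and 625 after AICAR. The lowest AICAR mouse, S460, fell just below the highest vehicle mouse, so the groups overlapped. The log2 fold change was 0.23 (SE 0.06, adjusted p = 0.012, edgeR). With the epidermal marker score in the fit it was 0.24 with an adjusted p of 0.087. In control mice Pdk2 was at 501, 482 and 499.7 with vehicle and at 522, 508 and 562 with AICAR. The log2 fold change of 0.10 did not pass (adjusted p = 0.44, edgeR). These groups did not overlap, in a comparison where 18.1% of all genes were higher without overlap.

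Pdk1 (chromosome 2, 71873215 to 71903858, plus strand), a kinase known as a hypoxia-responsive gene, was at 159, 138, 126, 123 and 140.2 normalized CPM in HSALR vehicle mice and at 127, 122, 126, 131 and 128 after AICAR. The AICAR values lay inside the vehicle range except for S455. The log2 fold change was -0.11 (95% interval -0.27 to 0.05, adjusted p = 0.30, edgeR) in HSALR mice and -0.12 in control mice (95% interval -0.32 to 0.08, adjusted p = 0.43). Fits that left out 1 mouse gave -0.15 to -0.05 in HSALR mice and -0.21 to -0.02 in control mice. With the 6 Krt14 libraries left out, so with S451 alone as the vehicle mouse, the value in HSALR mice was -0.33 with an adjusted p of 0.044.

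The genotype comparison asked which members differ in HSALR muscle. With vehicle, 2 of 10 members were called by edgeR, where 26.9% of all genes were called, 15.4% as higher and 11.5% as lower. Pdk3 was higher and Pdp1 was lower in HSALR mice, and 0 of the 5 complex genes were called by edgeR or had an unadjusted p under 0.05. After AICAR, 3 of 10 members were called, where 21.8% of all genes were, 12.2% as higher and 9.64% as lower. These were Pdk3 and Pdhx as higher and Pdp1 as lower. The comparisons within a treatment use the same libraries as the AICAR comparisons, so the sets of results are not independent of each other.

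Pdk3 (chromosome X, 93764616 to 93832150, minus strand), the kinase isoform with the lowest level here, overlaps Gm46689 and was at 1.49, 1.66 and 1.59 normalized CPM in control vehicle mice and at 3.01, 2.81, 3.47, 3.36 and 2.83 in HSALR vehicle mice. The groups did not overlap, in a comparison where 16.8% of all genes were higher in HSALR mice without overlap. HSALR mice were higher by 0.97 on the log2 scale (SE 0.12, adjusted p = 3.6e-05, edgeR), a 1.96-fold difference with a 95% interval of 1.64 to 2.34. After AICAR Pdk3 was at 1.66, 1.56 and 1.45 in control and at 2.77, 2.86, 2.89, 2.16 and 2.75 in HSALR mice (log2 fold change 0.79, SE 0.12, adjusted p = 3.3e-04). The values rested on 101 to 276 reads per library, which alone gives a counting error of 9.95% at the lowest count. Without the 6 Krt14 libraries the log2 fold changes were 0.93 (adjusted p = 0.036) with vehicle and 0.79 (adjusted p = 0.011) with AICAR. Leukocyte markers summed to 110.4 to 156 in control and 121 to 188 normalized CPM in HSALR vehicle mice, with Cd68, a macrophage gene, 1 of 6 called and higher (log2 fold change 0.77). Endothelial markers were lower in HSALR vehicle mice in 4 of 4 genes, with sums of 246 to 272 in control and 162 to 209.7 in HSALR mice. After AICAR 2 of 4 endothelial genes were called as lower, with sums of 240.1 to 264 in control and 194 to 212 in HSALR mice. Of the 6 leukocyte markers 0 were then called by edgeR, 2 by DESeq2 and 3 had an unadjusted p under 0.05, with Cd68 at 0.55 (adjusted p = 0.056) and sums of 107 to 129 in control and 139.6 to 229 in HSALR mice. The part of either in the Pdk3 result was not tested, and in whole tissue a change in the share of a cell type and a change in RNA per cell cannot be told apart.

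Pdp1 (chromosome 4, 11958183 to 11966450), the calcium-stimulated phosphatase that reactivates E1, was at 181, 104 and 149.7 normalized CPM in control vehicle mice and at 82.5, 74.2, 94.4, 94.7 and 137 in HSALR vehicle mice. Mouse S459 was above control mouse S446, so the groups overlapped. In the fit the difference was -0.59 on the log2 scale (SE 0.19, adjusted p = 0.035, edgeR). After AICAR Pdp1 was at 141, 109 and 112 in control and at 72.1, 83.8, 100.4, 71.9 and 71.2 in HSALR mice, without overlap, as were 11.6% of all genes in the lower direction. Here the fitted value was -0.60 (SE 0.19, adjusted p = 0.038). Both calls sat near the threshold. The first was lost in 6 of 8 fits that left out 1 mouse (all but S446 and S459), with values between -0.78 and -0.39 and an adjusted p of up to 0.21. The second was lost in 7 of 8 (all but S460), with values between -0.69 and -0.47 and an adjusted p of up to 0.17. Without the 6 Krt14 libraries the log2 fold changes were -0.80 (adjusted p = 0.19) and -0.66 (adjusted p = 0.050), and neither passed. With the epidermal marker score in the fit both were at -0.59, with adjusted p-values of 0.058 and 0.053, and with only the vehicle groups in the fit the first had 0.082. DESeq2 gave an adjusted p of 0.012 in both treatments, and the fit of only the AICAR groups gave -0.60 with an adjusted p of 0.012.

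Pdhx was the complex gene called between genotypes after AICAR, with 126, 125 and 123 normalized CPM in control and 144, 139.7, 136, 143 and 143 in HSALR mice. Each HSALR mouse was above each control mouse, where 15.0% of all genes were higher without overlap. The log2 fold change was 0.18 (SE 0.06, adjusted p = 0.045, edgeR). The call was kept by DESeq2 (adjusted p = 0.047). It was also kept by edgeR with at least 10 counts in every library (0.042) and with only the AICAR groups in the fit (0.024). The call was lost in 7 of 8 fits that left out 1 mouse (all but S460). It was also lost with RLE scaling (adjusted p = 0.076), scaling by library size alone (0.10), no filter on low counts (0.064), the epidermal marker score in the fit (0.053) and without the 6 Krt14 libraries (log2 fold change 0.19, adjusted p = 0.11). Pdk1 was lower in every HSALR AICAR mouse, at 127, 122, 126, 131 and 128, than in the control AICAR mice at 145, 143 and 151, with a log2 fold change of -0.21 and an adjusted p of 0.092 (-0.22 and 0.041 without the 6 Krt14 libraries, and -0.21 and 0.011 with only the AICAR groups in the fit). Among all genes, 11.6% were lower in HSALR AICAR mice without overlap. With vehicle the Pdk1 value was -0.22 (adjusted p = 0.066, edgeR), and DESeq2 gave -0.23 with an adjusted p of 0.048. Control mouse S446 had a part in the vehicle comparison: without it Pdha1 was at -0.26 (adjusted p = 0.013), Dlat at -0.22 (adjusted p = 0.045) and Pdk1 at -0.31 (adjusted p = 0.015), each lower in HSALR mice. Without S451 Pdk1 was called as well. Other fits that left out 1 mouse brought the vehicle value of Pdha1 to as little as -0.09, with an adjusted p of up to 0.52 (edgeR). Dlat came to -0.09 (up to 0.49) and Pdk1 to -0.11 (up to 0.37). Without the 6 Krt14 libraries the vehicle values were -0.03 for Pdha1, 0.01 for Dlat and 0.10 for Pdk1.

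**Figure D3:**
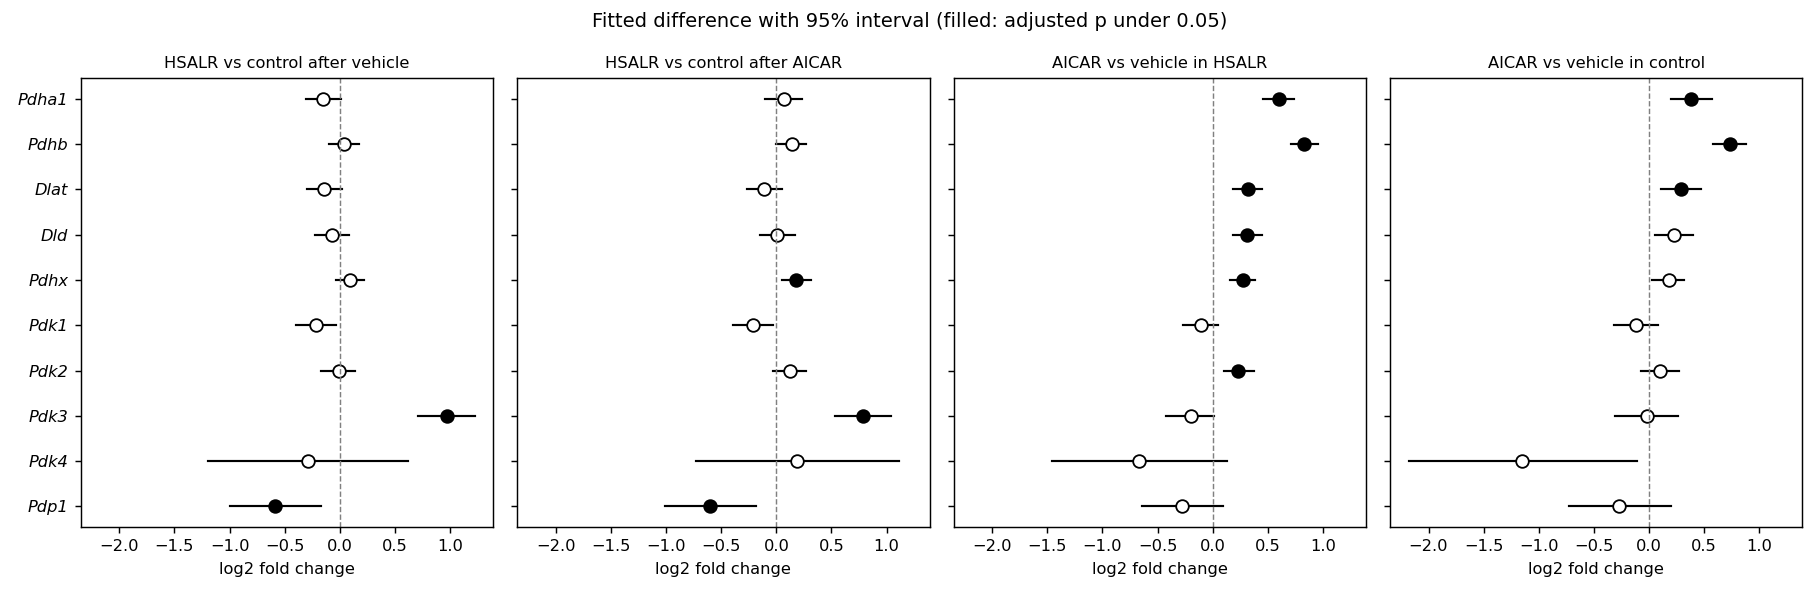
Log2 fold changes of the 10 members in the 4 comparisons, with 95% intervals as lines and filled points where the adjusted p was under 0.05 (edgeR). The E1 genes Pdha1 and Pdhb lie farthest to the right in both AICAR panels, Pdk3 in both genotype panels, and the Pdk4 intervals are the widest in every panel.

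The members differed in how much they varied between mice of a group. On the log2 scale the residual SD was 0.661 for Pdk4, at the 99.3rd percentile of the 1448 genes with a mean of at least 100 CPM, whose median was 0.110. Pdp1 had 0.294, at the 94.3rd percentile. The 5 complex genes had 0.0779 to 0.102, with Pdk2 at 0.0952 and Pdk1 at 0.119. Within groups the complex genes varied together, with a Pearson r between 0.61 and 0.87 for the 10 pairs over 16 libraries. Pdk1 was correlated with them at 0.59 to 0.82, Pdk2 at 0.084 to 0.53, Pdp1 at 0.10 to 0.48, and Pdk4 at -0.14 to 0.44. Pdk3 had negative values with all 5, from -0.71 to -0.50. These are descriptions over libraries that share scaling and handling.

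The genes whose levels were most like those of Pdk4 over the 16 libraries, of 13000 genes ranked, were Asb4 (Pearson r = 0.881), Thbs1 (r = 0.877), Hexim1 (r = 0.843), Gfod2 (r = 0.826) and Cnnm4 (r = 0.811). Within groups r was 0.713 to 0.839, and since the genes were picked for their r over the same libraries, these values restate the choice. Thbs1, which encodes thrombospondin 1, was at 99.1 and 81.2 normalized CPM in the HSALR vehicle mice S451 and S452 and at 41.1, 55.5 and 33.2 in S453, S458 and S459. Asb4 was at 21.0 and 19.4 against 9.99, 16.3 and 12.9 in the same mice. The genes listed as PPAR and FOXO targets of muscle, to which Pdk4 itself belongs, went along in part. Within groups their r with Pdk4 ran from -0.24 for Plin2, a lipid droplet protein, to 0.69 for Cpt1b, the mitochondrial gate for fatty acids, with Slc25a20 at 0.67 and Ucp3 at 0.65. Fbxo32 and Trim63, the ubiquitin ligases of muscle atrophy, had -0.16 and -0.10. These 6 genes were picked after their values were seen.

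The genes most like Pdhb were Chchd3 (Pearson r = 0.985), Nsun2 (r = 0.985), Cspg5 (r = 0.984), Atp5g1 (r = 0.983) and Gm38426 (r = 0.982). Pdhb was taken for this from 6 members that were called in equally many comparisons, by its smallest p-value, a choice made after the values were seen. Chchd3 is a protein of the mitochondrial cristae junction and Atp5g1 a subunit of the ATP synthase ring. Within groups r was 0.477 to 0.728 for these genes, which were picked for their r over the same libraries. Cspg5 at 0.0122 to 3.24 and Gm38426 at 1.36 to 10.6 normalized CPM had low levels. Chchd3 was at 330.4 to 533, Nsun2 at 67.2 to 369 and Atp5g1 at 145 to 259.

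The neighbours of the complex in pyruvate metabolism were read from lists of genes. Their counts stand beside 26.6% of all genes called for AICAR in HSALR mice, 13.2% in control mice, and 26.9% with vehicle and 21.8% with AICAR between genotypes. Of 9 genes for pyruvate transport and lactate, 5 rose with AICAR in HSALR mice and 6 rose in control mice, and the others did not pass. The median log2 fold changes were 0.31 and 0.34, beside -0.02 and -0.01 over all genes. Slc16a3, a lactate exporter, had log2 fold changes of 1.01 (adjusted p = 1.2e-05) and 0.74 (adjusted p = 0.0028). Pkm, the last step of glycolysis, and Bsg, the chaperone of lactate transporters, rose by 0.53 and 0.43 on the log2 scale in HSALR mice. Ldha rose by 0.55 and Slc16a1 by 0.69 in control mice. Of 6 genes for other uses of pyruvate, 0 were called in either comparison by edgeR or DESeq2, and 0 had an unadjusted p under 0.05, but 1 was called in HSALR mice without S458 or without S460. Between genotypes 2 of 9 were lower in HSALR mice in each treatment, with Ldhb, the heart-type lactate dehydrogenase, at -0.62 with vehicle (adjusted p = 0.042) and -0.67 with AICAR (adjusted p = 0.036). The other was Slc16a3 at -0.50 with vehicle and Slc16a1 at -0.50 with AICAR. Leaving out 1 mouse gave 4 or 5 called genes for AICAR in HSALR and 5 or 6 in control mice. Between genotypes the count fell to 1 with vehicle without S445, S446, S452, S453, S458 or S459, and to 1 with AICAR without S447, S448, S454, S455 or S463. With the Krt14 libraries left out, 4 genes were called for AICAR in either genotype, and 1 and 2 between genotypes with vehicle and AICAR. For the other uses of pyruvate that fit called 1 gene in each of these comparisons except AICAR in control mice, where 0 were called by edgeR and 0 had an unadjusted p under 0.05.

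The complex needs lipoyl groups and thiamine. Of 13 genes for these cofactors, 5 rose and 1 fell with AICAR in HSALR mice, and 5 rose in control mice. Lipt1, which transfers the lipoyl group to E2 proteins, was at log2 fold changes of 0.80 (adjusted p = 4.4e-05) and 0.93 (adjusted p = 3.5e-04), and Slc19a2, a thiamine transporter, at 0.48 and 0.82. Lipt2, which starts lipoyl synthesis, fell by 0.46 on the log2 scale in HSALR mice. Between genotypes, 4 rose and 2 fell with vehicle and 2 rose and 2 fell with AICAR. Mcat was higher in HSALR mice at 0.38 and 0.44, and Slc19a2 lower at -0.56 and -0.90, with vehicle and AICAR. The 5 genes called in control mice became 2 to 4 in every fit that left out 1 mouse (3 without S446 or S450 and 2 without S449), while 5 to 7 were called in HSALR mice. The fit without the Krt14 libraries called 2 for AICAR in control mice and 4 between genotypes with AICAR. There 0 were called by edgeR for AICAR in HSALR mice and 0 between genotypes with vehicle, with 6 and 3 at an unadjusted p under 0.05.

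Genes of related dehydrogenase complexes moved in both directions. Of 12 genes, 3 rose and 5 fell with AICAR in HSALR mice, and 1 rose and 2 fell in control mice. Dbt, the E2 of the branched-chain complex, fell by 0.55 and 0.43 on the log2 scale, and Ppm1k, the phosphatase of that complex, fell by 0.76 in HSALR mice. Dlst, the E2 of 2-oxoglutarate dehydrogenase, rose by 0.38 in control mice. Between genotypes Ogdhl, a paralog of the 2-oxoglutarate dehydrogenase E1, was higher in HSALR mice at 2.30 with vehicle (8.45 against 1.72 normalized CPM, adjusted p = 7.2e-06) and 2.16 with AICAR (5.90 against 1.31, adjusted p = 2.3e-05). Ogdh itself was at -0.30 with vehicle (973 against 1195 normalized CPM, adjusted p = 0.0074). In all, 3 rose and 2 fell with vehicle and 4 rose and 3 fell with AICAR. Leaving out 1 mouse gave 1 to 4 called genes for AICAR in control mice (1 without S445 or S449). Between genotypes it gave 3 to 6 with vehicle (3 without S445 or S450) and 4 to 7 with AICAR (4 without S447 or S448). When the Krt14 libraries were left out, 3 were called for AICAR in HSALR mice, and 2 and 4 between genotypes with vehicle and AICAR. For AICAR in control mice that fit called 0 by edgeR, with 3 at an unadjusted p under 0.05.

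Of 6 genes for the entry of acetyl-CoA into the cycle, 4 rose with AICAR in HSALR mice and 1 in control mice. Crat, which buffers acetyl-CoA as acetylcarnitine, was at 0.44 in HSALR and 0.28 in control mice. Between genotypes 1 was lower with vehicle (Crat at -0.30), and with AICAR 0 were called by edgeR and 1 by DESeq2, with 1 at an unadjusted p under 0.05. Leaving out 1 mouse gave 2 to 5 called genes for AICAR in HSALR mice (2 without S451, S453, S458, S462 or S463) and 0 or 1 in control mice (0 without S449 or S450). With vehicle, 1 to 3 were called between genotypes (2 without S445 and 3 without S446). On omission of the Krt14 libraries, 3 were called for AICAR in HSALR mice. In the other comparisons that fit called 0 by edgeR, with 2 for AICAR in control mice and 3 and 1 between genotypes with vehicle and AICAR at an unadjusted p under 0.05. Of the phosphatase partners, Pdp2, the second phosphatase isoform, was lower in HSALR vehicle mice at -0.66 (3.61 against 5.71 normalized CPM, adjusted p = 0.0082), a call that was lost without the 6 Krt14 libraries.

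Of 16 transcription regulators tied to Pdk genes, 5 rose with AICAR in HSALR mice, and 4 rose and 2 fell in control mice. Ppargc1a, a coactivator of mitochondrial genes, was at log2 fold changes of 0.74 (adjusted p = 0.014) and 1.66 (adjusted p = 0.0011), and Foxo3 at 0.68 and 0.67. Between genotypes 3 were lower in HSALR mice with vehicle, with Foxo4 at -0.42, Esrrg at -0.59 and Hif1a at -0.27. With AICAR 6 were lower, with Ppara at -1.16 (25.8 against 57.6 normalized CPM, adjusted p = 7.2e-04) and Ppargc1a at -0.87. Leaving out 1 mouse gave 1 to 3 called regulators with vehicle (1 without S450 or S458) and 2 to 7 with AICAR (3 without S447 and 2 without S449) between genotypes. It gave 3 to 6 for AICAR in HSALR (3 without S463) and 3 to 6 in control mice (3 without S445 or S449). After the Krt14 libraries were left out, 1 and 3 were called for AICAR in HSALR and control mice, and 1 and 4 between genotypes with vehicle and AICAR.

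Of 14 PPAR and FOXO targets, 2 rose with AICAR in HSALR mice, namely Fbxo32 at 1.55 and Txnip at 1.40. In control mice 0 of 14 were called by edgeR and 1 by DESeq2, with 1 at an unadjusted p under 0.05. Between genotypes 3 fell with vehicle (Cd36 at -0.42, Acadvl at -0.30 and Cpt1b at -0.28) and 4 with AICAR, among them Fabp3 at -0.81 and Lpl at -0.56. Leaving out 1 mouse gave 0 to 5 called genes with vehicle (0 without S445, S450 or S453, 1 without S458 and 5 without S446) and 0 to 6 with AICAR (0 without S447 or S448 and 2 without S454, S455 or S463). For AICAR in HSALR mice it gave 2 to 5 (5 without S462). Without the 6 Krt14 libraries, 1 was called for AICAR in HSALR mice. In the other comparisons that fit called 0 by edgeR, with 2 for AICAR in control mice and 0 and 5 between genotypes with vehicle and AICAR at an unadjusted p under 0.05.

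Of the 8 muscle fibre markers, 3 were higher and 1 lower in HSALR mice in each treatment. With vehicle, Myh1 was higher at 1.52 (adjusted p = 4.1e-05) and Myh7 lower at -1.37 (adjusted p = 0.011) in HSALR mice, Mb was higher at 0.79 and Acta1 at 0.31, and the myosin genes Myh2 at -0.28 and Myh4 at -0.34 were not called. Myh7 was at 1506, 1647 and 4812 normalized CPM in the control vehicle mice, and without S450, the highest, its value was -0.62 (adjusted p = 0.17). With AICAR, Myh1 was higher at 1.5, Mb at 1.18 and Acta1 at 0.46, Myh4 was lower at -0.67 (adjusted p = 0.018), and Myh7 at -0.68 was not called (adjusted p = 0.20). The transgene is human skeletal actin and reads were mapped to the mouse genome. Whether transgene reads were counted at Acta1 was not tested. The part of these markers in the genotype results for the members was not tested either. In the interaction term 0 genes of the 8 pathway lists were called by edgeR, with 0 to 6 genes per list at an unadjusted p under 0.05 and 0 or 1 per list called by DESeq2.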

How the data were processed

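RNA from gastrocnemius muscle of 16 mice was sequenced by the authors from stranded, polyadenylated single-end libraries. The authors mapped reads to mm10 with STAR 2.5.2a, where a read with several equally good hits was reported at 1 location, and counted with QuasR the reads starting in any RefSeq exon. Whether strand was used in counting is not given in the sources used here. The deposited values are raw counts per gene for 24454 Entrez identifiers, beside a gene length that the authors deposited. Of these, 24374 matched the RefSeq table of GRCm38.p6, the assembly of mm10.

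The analysis used edgeR 4.0.16 under R 4.3.3, with TMM scaling (factors 0.906 to 1.06), filterByExpr over the 4 groups, glmQLFit and glmQLFTest on all 16 libraries with 1 mean per group, and Benjamini-Hochberg adjustment over the 15487 genes tested, with a threshold of 0.05. Calls use the whole table, and a fold change is that of the fit. Likeness was Pearson's r of log2(normalized CPM + 0.5). Depth was 64890014 to 81987726 reads per library. Replicates differed by more than sampling noise (chi-square per degree of freedom 25.1 to 141), and mice of different groups share no identifier, so nothing was paired. The test was run on simulated counts first.

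The members and gene lists were chosen with earlier results of these data known. All 10 members are named. Of every other list, at most 3 called genes with the largest fold change and a mean count of at least 50 are named in each comparison, and the 5 genes most like Pdk4 and most like the other member called most often. Muscle fibre markers, and PPAR and FOXO targets set beside Pdk4, are also named beyond this rule. Some genes that this rule names are not reported here. Alternatives were DESeq2 1.42.0, RLE and library-size scaling, no filter, a minimum of 10 counts in every library, a fit of only the groups compared, leaving out each mouse, and levels not divided by length. Leaving out the 6 libraries with Krt14 above 1 CPM and an epidermal marker score as covariate were added after seeing the data.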

Additional observations from a re-analysis of the deposited data

Results flagged for a closer look

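In HSALR AICAR mice, Pdk3 was at 2.16 normalized CPM in mouse S462, apart from the other 4 mice at 2.75 to 2.89. The gap took 0.814 of the group's whole range, above Dixon's critical value for 5 samples. This was 1 of 34 groups of 4 or more mice examined, where chance flags 1.7. The epidermal marker Krt14 was at 0.0391 CPM in this mouse and at 0 to 0.0137 in the other 4 mice. All of these lie far below the cut of 1 CPM used above.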

How the results depend on the processing

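No paired analysis was possible because the mouse numbers differ between all groups. Scaling by RLE and both other filters on low counts kept the counts of all genes and of members called within 1.5 times in each comparison and turned no member's direction. The cause of the changes that follow was not tested.

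Scaling by library size alone put the interaction term of Pdk1 at -0.01 on the log2 scale, against 0.01. DESeq2 called 536 genes in the interaction term, where edgeR called 107. Fitting only the groups compared gave 1164 genes for AICAR in control mice, against 2039, and 1 member for HSALR against control with vehicle, against 2.

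Without the 6 Krt14 libraries, chosen after seeing the data, 904 genes and 1 member were called for HSALR against control with vehicle, 899 genes and 3 members for AICAR in HSALR mice, and 697 genes and 1 member for AICAR in control mice. The interaction term had 0 genes called by edgeR, with 1485 at an unadjusted p under 0.05, and DESeq2 was not run there. The genotype difference with vehicle turned to 0.01 for Dlat, 0.10 for Pdk1 and 0.40 for Pdk4. The interaction term turned to -0.12 for Dlat, -0.32 for Pdk1, -0.07 for Pdk4 and 0.13 for Pdp1. These fits had 10 libraries and 1 HSALR vehicle mouse.

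With the epidermal marker score as a covariate, also chosen after seeing the data, 1 member was called between genotypes with vehicle and 1 with AICAR, against 2 and 3. Pdk4 turned to -0.02 between genotypes with AICAR, 2108 genes were called for AICAR in HSALR mice, and 57 in the interaction term. Levels not divided by length gave Pdk2 45.4% of the kinases in control vehicle, 60.6% in control AICAR and 62.3% in HSALR AICAR mice, and gave Pdk4 39.8% and 22.5% in the control groups.

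Leaving out 1 mouse at a time gave 1 to 5 members for HSALR against control with vehicle (1 without S445, S450, S452, S453 or S458 and 5 without S446), and 1 to 3 with AICAR, where S460 was the only mouse whose omission kept 3. The genes called ranged from 1143 to 1726 for AICAR in control mice (1214 without S445, 1344 without S448 and 1143 without S449), and from 2214 (without S447) to 3790 between genotypes with AICAR. In the interaction term 15 to 371 genes were called, and omitting any mouse but S449, S451, S458 or S459 moved the count by over 1.5 times. Log2 values that crossed 0 were not called: between genotypes Pdhb (-0.04 to 0.10) and Pdk2 (-0.05 to 0.02) with vehicle and Pdk4 with AICAR (-0.05 to 0.35), Pdk3 for AICAR in control mice (-0.07 to 0.03), and in the interaction term Dlat (-0.02 to 0.11), Pdk1 (-0.09 to 0.10) and Pdp1 (-0.20 to 0.18).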
